A study of Homo sapiens with 33 samples.

Results

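Interferon stimulated genes were followed by RNA-seq in 3 cell lines of head and neck squamous cell carcinoma (HNSCC), SCC1, SCC6 and SCC25, over days of culture with and without cetuximab. The list held 44 genes chosen by symbol as known targets of interferon, and 44 of 44 were found among the 56470 gene symbols of the count table. Cetuximab is an antibody that binds the epidermal growth factor receptor (EGFR) and blocks its ligands. Each line was sampled under PBS, the vehicle, on days 0 to 5 and under 100 nM cetuximab on days 1 to 5, with treatment begun the day after seeding and medium renewed daily. SCC25 was grown with hydrocortisone at 0.4 µg/mL and SCC1 at 1.0 µg/mL, and none was stated for SCC6. The SCC6 cetuximab arm held 2 libraries labelled day 2, called 2a and 2b here, and none labelled day 1, and the labels do not say whether one of them was taken on day 1, on which the SCC6 values by day depend. A line, treatment and day was otherwise 1 library, 33 in all, so that days took the place of replicates and the p-values measure a difference against the spread between days.

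Type I and type III interferons are secreted when cells sense foreign or misplaced nucleic acid. Their receptors activate the kinases JAK1 and TYK2, and the signal reaches the nucleus as the complex ISGF3, which holds STAT2 and IRF9 and binds the interferon stimulated response element in the promoters of its targets. Among these targets are the RNA sensors themselves, the transcription factors IRF7, IRF9 and STAT2, the ubiquitin-like modifier ISG15 with its enzymes, proteins that bind or destroy viral RNA, membrane proteins that hinder viral entry or release, and chemokines. Epithelial tumour lines can express many of them without added interferon, at levels that differ widely between lines.

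The promoters of the list carried the letters of the response element more often than promoters in general. RefSeq sequence on GRCh38, from 250 bases before to 50 after the start of the gene, was matched for 36 of the 44 members. A core of this element, the letters TTTC repeated after a gap of 2 bases, was found on either strand in 22 of the 36 (61.1%), against 1255 of all 35116 promoters (3.57%). The letters TTC and GAA with 3 bases between them, the interferon gamma activated motif, which reads the same on both strands, was found in 11 of the 36 (30.6%) and in 2689 of all promoters (7.66%). Stretches upstream of the start are shown for 6 members whose values appear in the results below and whose window held the TTTC motif. Each is written 5′ to 3′ on the strand of its gene. Capitals mark every match of the TTTC motif, which on this strand reads as GAAA repeated after a gap of 2 bases. The coordinates are GRCh38, at chr15:88638907-88639015 (+) for ISG20, chr4:76023628-76023747 (-) for CXCL10, chr1:27672269-27672388 (-) for IFI6, chr1:78620244-78620363 (+) for IFI44L, chr13:42992242-42992331 (-) for EPSTI1 and chr7:93118036-93118155 (-) for SAMD9. The stretch of IFI6 held 3 matches and the others 1 each.
ISG20: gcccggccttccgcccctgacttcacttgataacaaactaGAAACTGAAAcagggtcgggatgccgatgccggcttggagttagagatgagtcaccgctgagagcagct
CXCL10: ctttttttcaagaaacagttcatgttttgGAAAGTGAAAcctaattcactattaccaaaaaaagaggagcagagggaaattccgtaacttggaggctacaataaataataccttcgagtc
IFI6: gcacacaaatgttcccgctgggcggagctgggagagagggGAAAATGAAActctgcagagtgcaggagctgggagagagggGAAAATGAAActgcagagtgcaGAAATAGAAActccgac
IFI44L: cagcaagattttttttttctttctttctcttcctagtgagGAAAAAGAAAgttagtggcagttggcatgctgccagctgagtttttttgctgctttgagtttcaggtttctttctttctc
EPSTI1: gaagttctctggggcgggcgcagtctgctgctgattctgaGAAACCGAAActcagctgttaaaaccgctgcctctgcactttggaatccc
SAMD9: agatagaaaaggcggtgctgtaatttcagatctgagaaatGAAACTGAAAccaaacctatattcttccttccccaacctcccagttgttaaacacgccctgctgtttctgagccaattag
The 6 were chosen for holding the motif, and their genes moved in different directions. No match was found in 14 of the 36 members. Among these were STAT2, IRF1, IRF9, UBE2L6, OAS1, RSAD2 and CMPK2, which are also reported below. The windows of OAS1, RSAD2, DDX58 and XAF1 hold GAAA repeated after a gap of 1 base, which the search did not count. The absence of a match therefore does not mean that a promoter lacks the element. How often that spacing occurs in all promoters was not counted. A match is a description of the letters and not evidence of binding.

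Library totals ran from 28508758 to 80727478 estimated counts. The run codes in the library titles, read here as flow cells A to E, did not cross the arms evenly. The number after each code was read as the lane. Flow cell A held all SCC25 PBS libraries and SCC25 cetuximab on days 1 and 2, B held SCC25 cetuximab on days 3 to 5 and SCC1 PBS on days 0 to 4, C held SCC1 PBS on day 5, all SCC1 cetuximab and SCC6 PBS on days 0 and 1, D held SCC6 PBS on days 2 to 5 with SCC6 cetuximab 2a, 2b and day 3, and E held SCC6 cetuximab on days 4 and 5. The blood cell markers PTPRC, CD3E, CD79A, LYZ and CLEC4C were each at 0.343 CPM (the count scaled to the library total) or less in every library. CD68, also on that list, went the other way, at 145 to 232 CPM in SCC25, 6.34 to 48 in SCC1 and 3.73 to 32.2 in SCC6. Epithelial markers summed to at least 1288.79 CPM in SCC6, 1317 in SCC1 and 8948.7 in SCC25 under PBS, although the basal keratins KRT5 (1.77 to 14.5 CPM) and KRT14 (1.85 to 12.5 CPM) were low in SCC6, where CDH1 lay at 433 to 902 CPM.

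Under PBS the members differed widely between lines. CPM values are not divided by gene length, so they are compared here between libraries of 1 gene and not between genes. SCC6 held 42 members below SCC1 and 1 above it (edgeR quasi-likelihood test, adjusted p under 0.05), where 69.1% of all genes were called (34.8% lower), and the median difference over the members was −3.04 on the log2 scale. The 1 member above was ISG20, an exonuclease that degrades RNA, by 0.89. The widest gaps were those of BST2, which tethers budding virions to the cell surface, at −9.30, of IFI27 at −8.61 and of OAS2, which makes the second messenger that activates RNase L, at −7.65. BST2 lay between 0 and 0.212 CPM in the PBS libraries of SCC6.

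SCC25 lay nearer to SCC1. In SCC25, 17 members were lower than in SCC1 and 4 higher, where 69% of all genes were called, with a median of −0.49. The 4 higher were STAT2 (0.76), OASL (2.04), BST2 (0.82) and the chemokine CXCL11 (1.34). MX1, a GTPase that traps viral nucleocapsids (GRCh37 chromosome 21, 42791947 to 42841998), was the exception to the closeness of these lines. It measured 43.1, 43.0, 37.4, 58.3, 174 and 282 CPM in SCC1 on PBS days 0 to 5. In SCC25 the same days gave 1.08, 0.747, 1.09, 0.666, 0.758 and 0.583 CPM. The difference of −7.00 ± 0.61 (SE, 18 PBS libraries, adjusted p = 3.2e-09) left no overlap between the lines, and its neighbour MX2 was lower by −3.52. Against SCC6, SCC25 was higher at 36 members and lower at 2, MX1 (−2.47) and SAMD9 (−1.04), where 72.1% of all genes were called. Lines cannot be told apart from their medium and flow cell in these comparisons.

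**Figure D1:**
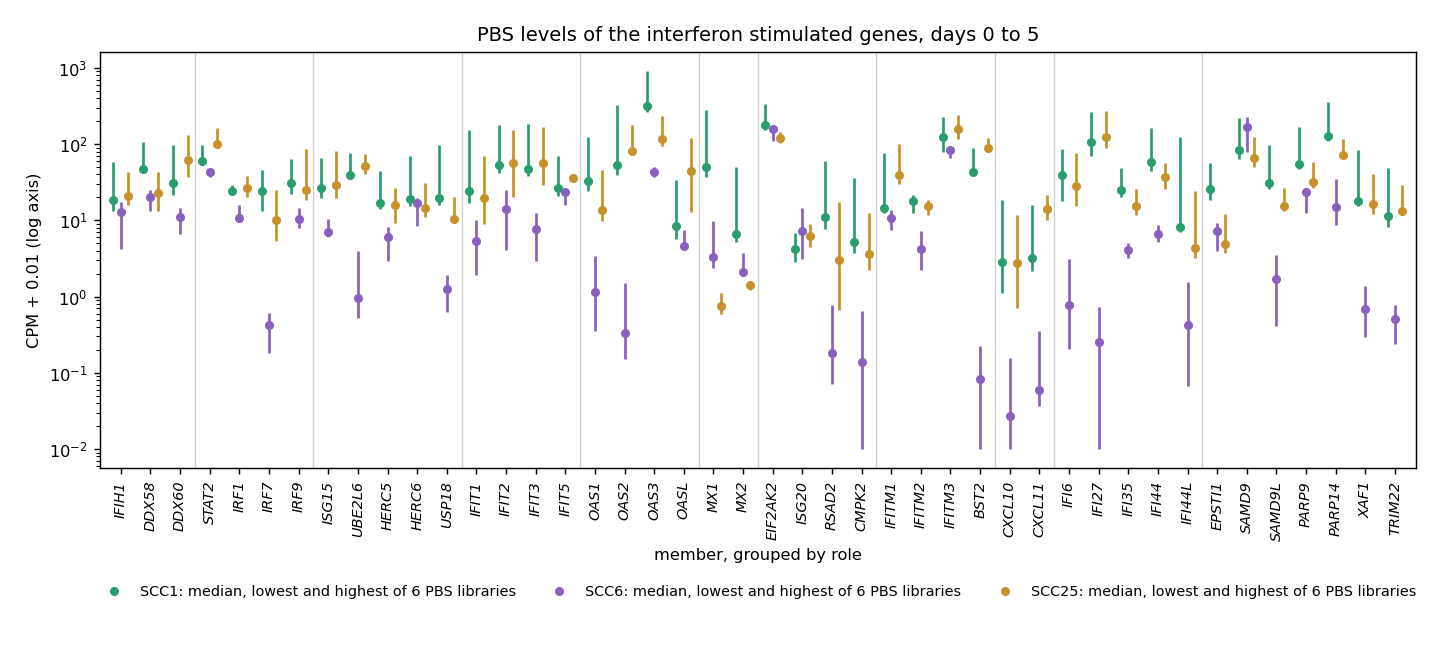
Level of each member under PBS in the 3 lines, in CPM + 0.01 on a log axis, with the median of 6 libraries and their lowest and highest value, members grouped by role. SCC6 lies below SCC1 at most members (42 called lower), and MX1 is the member at which SCC25 falls farthest below SCC1 (−7.00 on the log2 scale).

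The first question was what the members did in vehicle alone. They rose with days of culture in all 3 lines. In SCC1, 31 of 44 had a positive day trend past the test and none a negative one, where 3.22% of all genes were called (2.15% upward), and the median slope was 0.35 log2 units per day. In SCC25 it was 39 of 44, all upward, where 13.4% of all genes were called (8.7% upward), with a median of 0.23. In SCC6, 32 members were abundant enough to test, and 20 rose and 2 fell, where 38.3% were called (16.5% upward), with a median of 0.19. The 12 members that rose in each line were the sensors IFIH1 and DDX60, HERC6, the ISG15 protease USP18, IFIT1, IFIT2 and IFIT3, OAS1, IFITM1, IFITM2, PARP9 and PARP14. How many of all genes rose in each of the 3 lines was not counted.

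The time course differed in shape. Relative to PBS day 0, the median over the 44 members in SCC1 was −0.03, −0.06 and 0.27 on days 1 to 3, then 1.24 on day 4 and 1.66 on day 5. The number of members at least 2-fold above day 0 went from 1 on day 3 to 27 on day 4 and 38 on day 5, against 1.1 to 3.13% of all genes over the 5 days. SCC25 climbed steadily, with medians of 0.05, 0.22, 0.41, 0.77 and 1.13. SCC6 reached 0.17, 0.64, 0.69, 1.17 and 1.06. The highest PBS value fell on day 5 for 41 of 44 members in SCC1 and 41 of 44 in SCC25, where 23.1 and 23.2% of all genes peaked on that day, whereas 22 of 41 peaked on day 4 in SCC6 (12.8% of all genes). All 6 PBS libraries of SCC25 came from flow cell A, so its rise was measured within 1 run. Days 0 to 3 were on lane 1 and days 4 and 5 on lane 2. In SCC1 the trend on flow cell B alone, days 0 to 4, was called for 22 members, where 10.5% of all genes were called. On flow cell D alone, SCC6 PBS days 2 to 5, 10 of 34 members were called, 8 of them upward (9.64% of all genes called). The SCC1 count rested on single libraries: it was 1 without day 1 and 2 without day 4, and in SCC6 it was 12 without day 0.

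**Figure D2:**
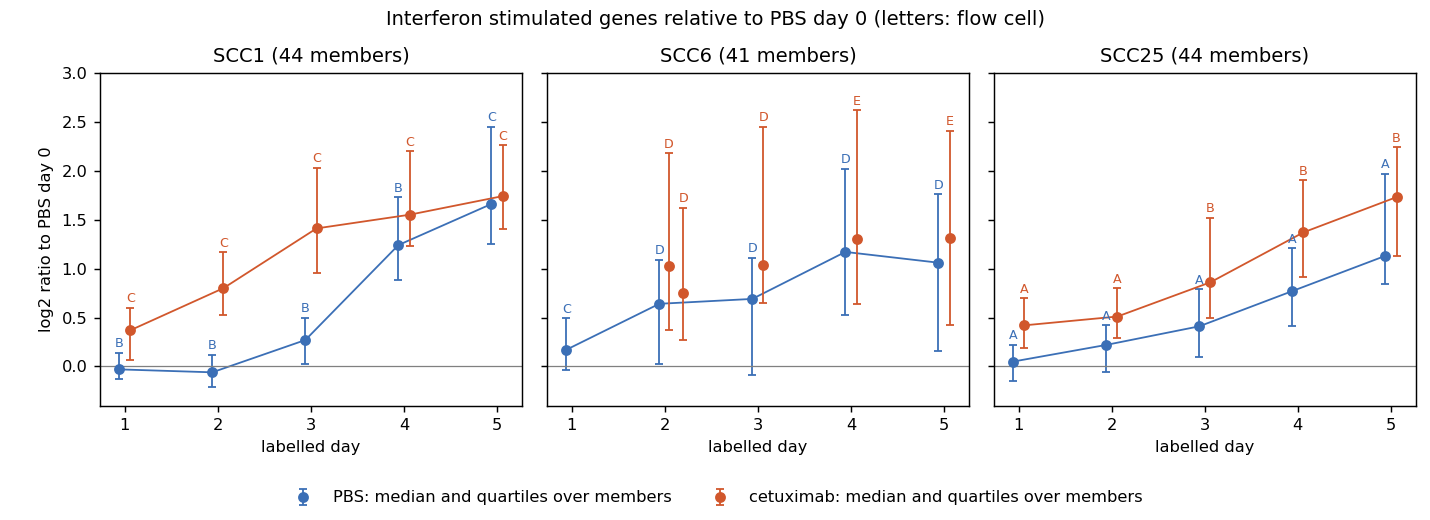
Median and quartiles over the members of the log2 ratio to PBS day 0 of the same line (CPM + 0.1), by day, PBS in blue and cetuximab in orange, with letters for the flow cell. PBS ended at 1.66 in SCC1, 1.06 in SCC6 and 1.13 in SCC25 on day 5, and the cetuximab medians on day 1 were 0.37 in SCC1 and 0.42 in SCC25.

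In SCC1 the steepest trends under PBS belonged to IFI44L, a protein of unsettled function with antiviral activity (GRCh37 chromosome 1, 79085587 to 79111830), the chemokine CXCL10, which draws T cells through CXCR3 (chromosome 4, 76942271 to 76944650), MX2, which blocks nuclear entry of retroviral genomes, and CMPK2, a mitochondrial nucleotide kinase. IFI44L read 7.28, 7.00, 7.33, 9.22, 50.6 and 123 CPM on days 0 to 5, a slope of 0.86 ± 0.14 log2 units per day (SE, 6 libraries, edgeR adjusted p = 0.029). Its first 4 values lie together and the last 2 far above them. CXCL10 read 1.10, 2.96, 1.87, 2.74, 12.5 and 18.4 CPM (slope 0.78 ± 0.12, adjusted p = 0.025). MX2 read 5.22, 6.20, 5.49, 7.00, 25.7 and 49.7 CPM (0.67 ± 0.11, adjusted p = 0.028). CMPK2 had 4.13, 4.57, 3.76, 5.84, 20.2 and 36.4 CPM (0.66 ± 0.11, adjusted p = 0.029). In each of these genes the break came between day 3 and day 4, which were sequenced on the same flow cell. By role, 3 of 3 sensors, 4 of 4 OAS genes, 2 of 2 MX genes and 2 of 2 chemokines rose, 3 of 4 IFIT and 3 of 4 membrane genes, and 2 of 7 in the mixed group of EPSTI1, SAMD9, SAMD9L, PARP9, PARP14, XAF1 and TRIM22.

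In SCC25 the trends had small errors. RSAD2, which encodes viperin, an enzyme that makes a chain-terminating nucleotide (GRCh37 chromosome 2, 7005688 to 7038370), read 0.659, 1.70, 2.01, 3.99, 8.25 and 17.5 CPM on PBS days 0 to 5. That was a 26.6-fold ratio of day 5 to day 0, and the slope was 0.91 ± 0.05 log2 units per day (6 libraries, edgeR adjusted p = 6.7e-08). CXCL10 in SCC25 increased in every library after the one before it, through 0.699, 0.842, 1.93, 3.54, 7.60 and 11.8 CPM (0.89 ± 0.05, adjusted p = 6.7e-08). OASL, an OAS-like protein that aids RNA sensing, read 13, 24.7, 35.9, 52.3, 89.6 and 121 CPM (0.63 ± 0.02, adjusted p = 2.4e-09). IFIT2, which binds viral RNA and restrains translation, read 20.0, 31.1, 42.1, 69.4, 101 and 154 CPM (0.59 ± 0.02, adjusted p = 2.8e-10). These 4 members had no day on which they fell. In SCC25 ISG15 and each of its enzymes rose, as did every sensor, signalling factor, OAS gene, RNA or nucleotide effector, membrane gene and chemokine of the list. The 5 members that did not pass the test were IFIT5, MX1, MX2, IFI6 and IFI27.

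IFI6 and IFI27 are small mitochondrial or endoplasmic reticulum proteins, and their course was not monotonic. IFI6 in SCC25 PBS read 75.6 CPM on day 0, 36.5, 16.3, 15.6 and 19.8 on days 1 to 4 and 55.0 on day 5. In SCC1 it read 52.8 on day 0, then 22.1, 18.1, 24.8, 82.2 and 87.0. IFI27 followed a like path, with 274, 130, 88.5, 88.4, 118 and 223 CPM in SCC25 and 132, 71.5, 70.3, 82.9, 181 and 260 CPM in SCC1. Both genes were thus lower on days 1 to 3 than on day 0 and above their day 3 value again on day 5 in these lines, and the SCC25 libraries shared 1 flow cell.

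In SCC6 the low level of many members limited the test to 32. SAMD9L, a cytoplasmic inhibitor of translation, read 0.479, 0.405, 1.14, 2.27, 3.37 and 3.53 CPM on PBS days 0 to 5 (slope 0.67 ± 0.09, 6 libraries, edgeR adjusted p = 0.0012). UBE2L6, the conjugating enzyme for ISG15, read 0.648, 0.623, 0.517, 1.27, 2.84 and 4.00 CPM (0.61 ± 0.09, adjusted p = 0.0022). OAS1 was at 0.563, 0.342, 0.931, 1.35, 3.39 and 2.22 CPM (0.58 ± 0.11, adjusted p = 0.0057). IFIT2 in SCC6 went from 4.06 through 8.28, 12.2, 15.9 and 24.9 to 21.2 CPM (0.47 ± 0.07, adjusted p = 0.0016). The first pair of libraries, on flow cell C, held the lowest values of IFIT2 and SAMD9L. The 2 members that fell were ISG20 (−0.46 per day) and STAT2 (−0.08 ± 0.03, adjusted p = 0.027).

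Of the transcription factors, STAT2, a subunit of ISGF3, read 53.3, 52.9, 60.3, 58.8, 71.4 and 98 CPM in SCC1 (slope 0.16 ± 0.03, edgeR adjusted p = 0.043). In SCC25 it read 95.8, 89.2, 92.6, 107, 121 and 161 CPM (0.15 ± 0.03, adjusted p = 0.0018). In SCC6 it went from 46.1 and 47.1 through 44, 42.9 and 38.3 to 36.7 CPM, the fall given above. STAT2 thus rose over PBS days in 2 lines and fell in 1. IRF9, its DNA-binding partner, read 22, 25.5, 28.6, 33, 51.3 and 64.2 CPM in SCC1 (0.31 ± 0.03, adjusted p = 0.0075) and 22.6, 18.6, 22.2, 27.7, 49.8 and 86.9 CPM in SCC25 (0.41 ± 0.05, adjusted p = 0.00026). In SCC6, IRF9 scattered between 7.82 and 14.7 CPM with no trend past the test (−0.03 ± 0.07, adjusted p = 0.72).

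IRF7, the amplifier of interferon transcription, read 13.2, 14.9, 23.1, 26.1, 45.7 and 36.9 CPM in SCC1 PBS (slope 0.35 ± 0.05, edgeR adjusted p = 0.019). In SCC25 it read 5.39, 6.34, 9.47, 10.8, 12.5 and 24.9 CPM (0.42 ± 0.04, adjusted p = 1.2e-05). It was at 0.172 to 0.592 CPM in the SCC6 PBS libraries, too low for the trend test. IRF1, which is induced chiefly by interferon gamma and also drives antiviral genes directly, read 20.0, 21.9, 25.6, 27.3, 31.9 and 38.5 CPM in SCC25 (0.19 ± 0.02, adjusted p = 5.3e-05), an increase at every day. In SCC6 it read 9.61, 10.0, 10.2, 11.3, 14.5 and 15.8 CPM (0.14 ± 0.04, adjusted p = 0.016). In SCC1 its 6 values lay between 22.7 and 28.9 CPM and the trend of 0.05 ± 0.03 did not pass (adjusted p = 0.33).

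**Figure D3:**
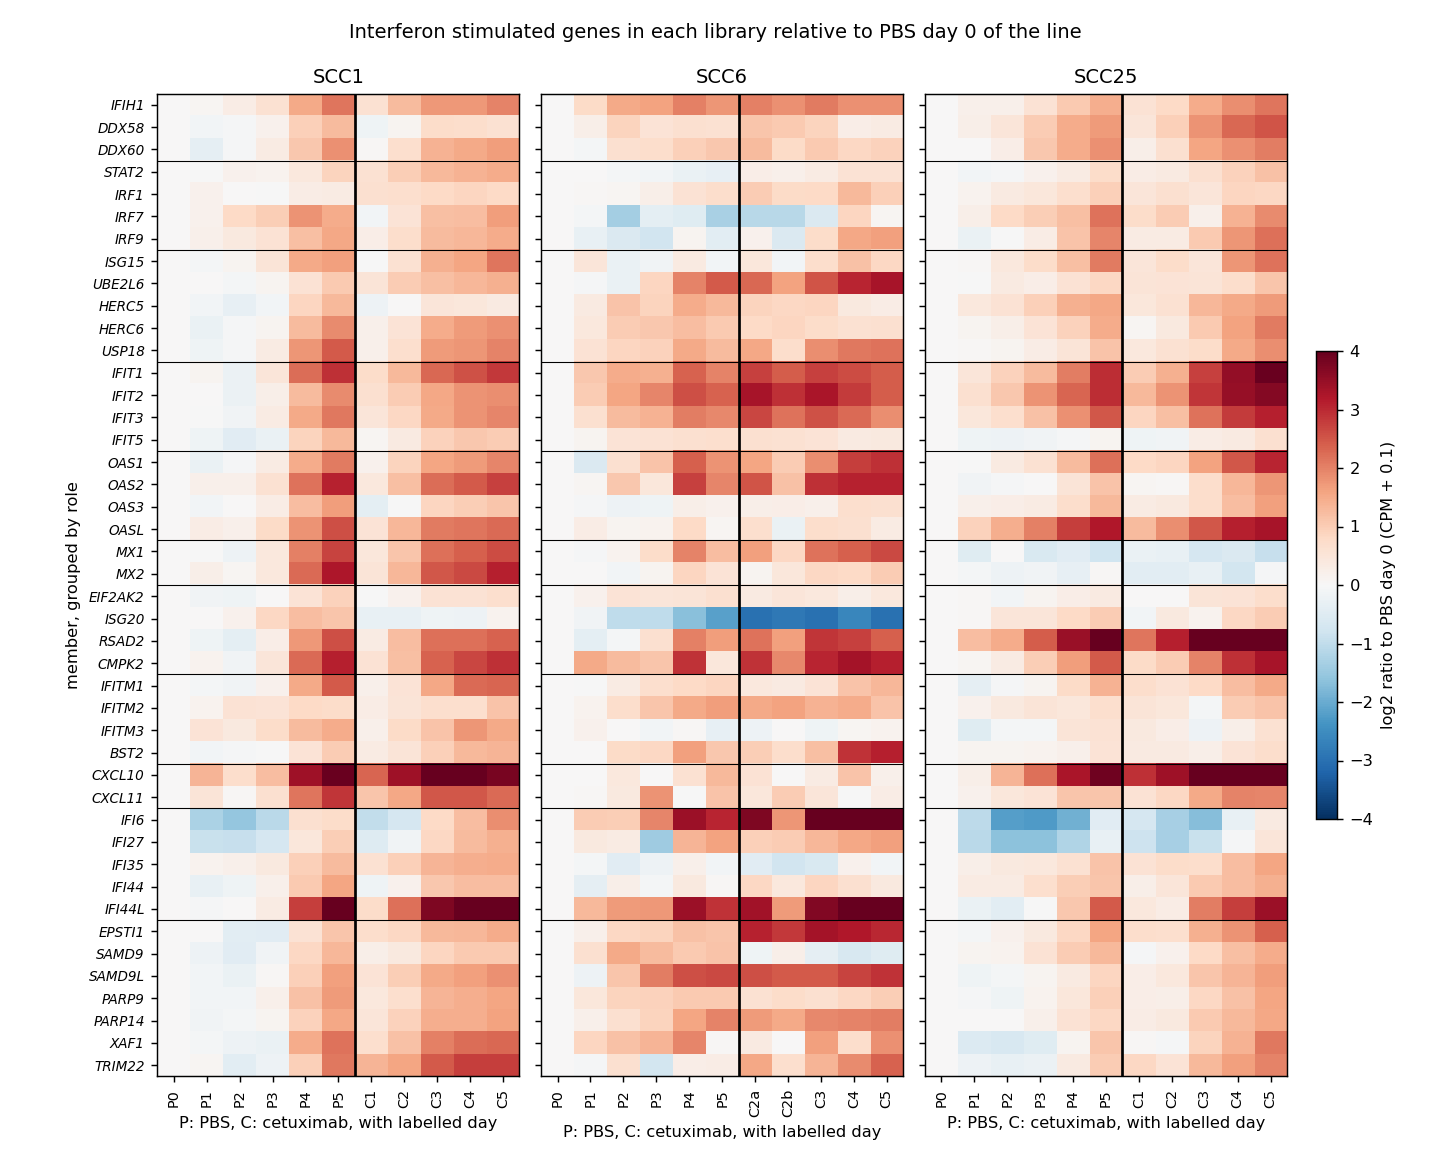
Log2 ratio of each member to PBS day 0 of the same line (CPM + 0.1, colour from −4 to 4), members in rows by role and libraries in columns, P for PBS and C for cetuximab. SCC1 PBS changes between days 3 and 4 (medians 0.27 and 1.24) while SCC25 PBS changes gradually, and ISG20 and SAMD9 stand out in SCC6 cetuximab.

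The second question was the effect of cetuximab. Because most tested members rose over the PBS days, the comparison of all cetuximab with all PBS libraries of days 1 to 5 set the treatment against a spread that held this rise. By this comparison 6 of 44 members differed in SCC1, 5 upward, where 44.8% of all genes were called (22.7% upward), 15 of 41 in SCC6, 13 upward and 2 downward (30.1%, 15.6% upward), and 1 of 44 in SCC25 (18.3%, 8.8% upward). Over both directions the shares of members called were below the background in SCC1 and SCC25 and near it in SCC6. By direction, SCC6 had 31.7% of members higher, against 15.6% of all genes, and 4.88% lower, against 14.6%. The fitted difference was positive at 39 of 44 members in SCC1 and 40 of 44 in SCC25, and the median difference was 0.45 in SCC1, 0.56 in SCC6 and 0.48 in SCC25 on the log2 scale. The counts depended on single days: without PBS day 5 they were 15 in SCC1 and 13 in SCC25, and in SCC6 the count was 8 without PBS day 2 or day 3 and 9 without cetuximab day 4. In SCC25 it was 0 without PBS day 1, 2 or 3 or cetuximab day 4 or 5, 6 without cetuximab day 1 and 5 without cetuximab day 2. Shares of all genes called with a library left out are not given here.

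With each cetuximab library set against PBS of its own labelled day (the day as a block), 28 members were called in SCC1, 27 higher and 1 lower, where 47.1% of all genes were called. In SCC6 it was 20 higher and 4 lower of 41 (45.8%), and in SCC25 33 higher and none lower of 44 (26.8%). The medians were 0.58, 0.58 and 0.50. In this fit 12 members were higher in all 3 lines, namely STAT2, UBE2L6, IFIT1, IFIT2, OAS1, RSAD2, CMPK2, IFI6, IFI44L, EPSTI1, PARP14 and TRIM22. How many of all genes were higher in all 3 lines was not counted. The shares of all genes given for this fit and the next pool both directions. A further fit, chosen after the data were seen, kept the day block and added the flow cell, which left 3 residual degrees of freedom. The median was 0.38 in SCC25, with 26 of 44 members called, all higher (13.6% of all genes), and 0.62 in SCC6, with 19 higher and 3 lower (34.1%). In SCC1 it became −0.09, with 3 members called, all higher (28.7%).

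Each line's estimate in this fit rests on the days whose libraries shared a flow cell, days 1 and 2 in SCC25, libraries 2a, 2b and day 3 in SCC6 and day 5 in SCC1, so the lines are not compared by it. Of the 33 members called with the day block in SCC25, 24 kept their call and 33 their sign. Of the 24 in SCC6, 17 kept the call and 24 the sign. Of the 28 in SCC1, 2 kept the call and 15 the sign. Both fits use the same libraries, so a kept sign is not an independent check. On day 5 in SCC1, 17 of 44 members were higher under cetuximab. On days 1 to 4 in SCC1, days 3 to 5 in SCC25 and days 4 and 5 in SCC6, treatment and flow cell cannot be told apart. On the days that shared a flow cell, PBS was on lane 1 and cetuximab on lane 2 in each line. Treatment and lane cannot be told apart there, in this fit or in the ratios by day.

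**Figure D4:**
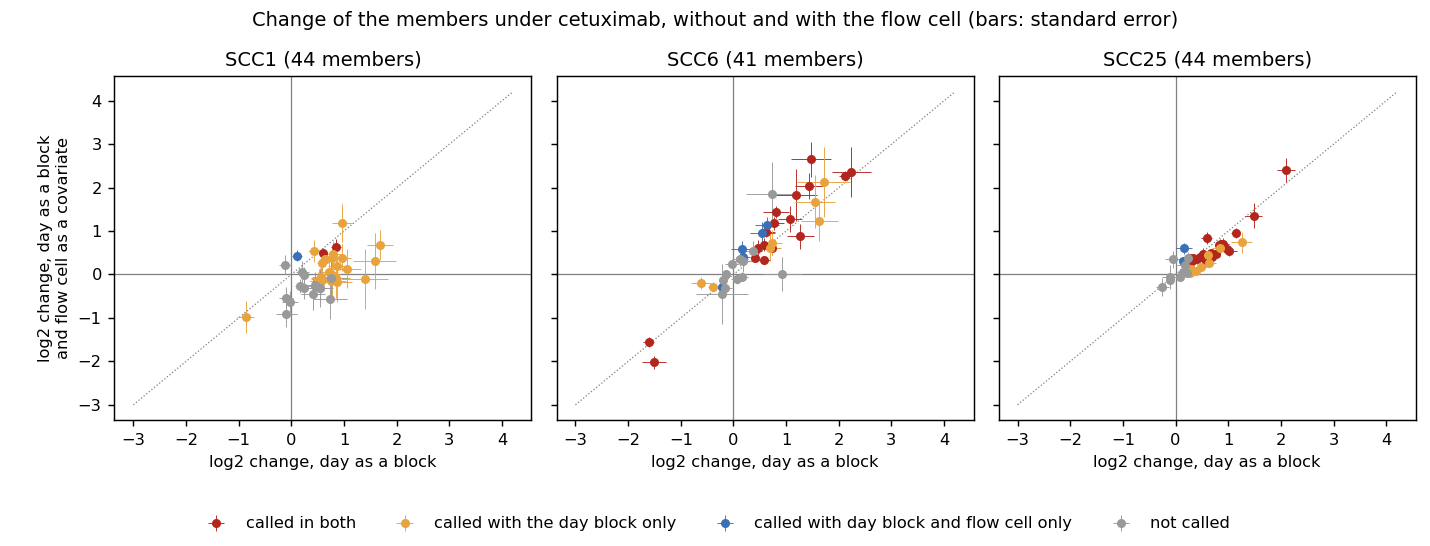
Log2 change under cetuximab with the day as a block (horizontal) against the same with the flow cell added (vertical), 1 point per member with SE bars, coloured by call, 1 panel per line. The members called with the day block kept their sign in SCC25 (33 of 33) and SCC6 (24 of 24), though their size moved between the fits, and those of SCC1 scatter about 0 on the vertical axis (median −0.09). Both fits use the same libraries, so kept signs are not an independent check.

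Day by day, the median log2 ratio of cetuximab over PBS in SCC25 was 0.38, 0.38, 0.53, 0.67 and 0.56 on days 1 to 5, with 37, 41, 37, 41 and 40 of 44 members higher. Its first 2 days were compared within flow cell A, with the arms on different lanes. SCC6 gave 0.62 for 2a, 0.20 for 2b, 0.56 for day 3, 0.26 for day 4 and 0.41 for day 5. Libraries 2a, 2b and day 3 were within flow cell D, again with the arms on different lanes. SCC1 gave 0.44, 0.82, 1.23 and 0.38 on days 1 to 4 and −0.11 on day 5. The median over all genes lay between −0.01 and 0.04 in these ratios. Members higher under cetuximab on every day numbered 31 of 44 in SCC25, where 18% of all genes did so, 19 of 41 in SCC6 (27%) and 14 of 44 in SCC1 (25.9%). Those lower on every day were MX2 in SCC25, ISG20 in SCC1, and HERC5, HERC6, EIF2AK2, ISG20, SAMD9 and PARP9 in SCC6.

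**Figure D5:**
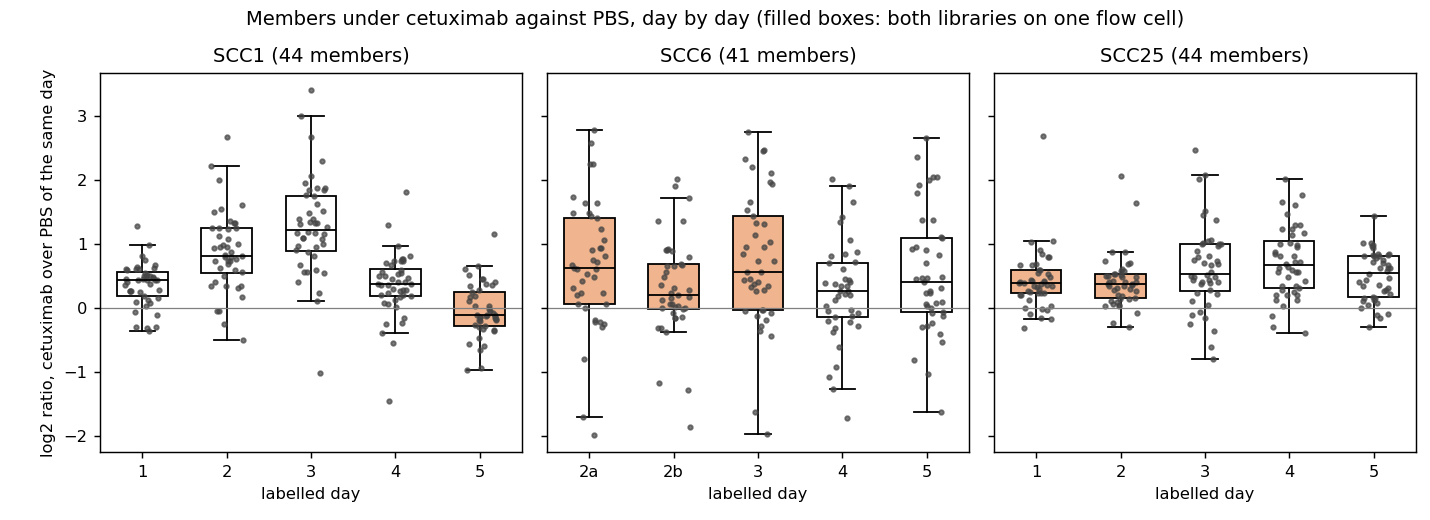
Log2 ratio of cetuximab over PBS of the same day for each member, as points with a box for the quartiles, by day and line, boxes filled where both libraries came from the same flow cell. The medians of SCC25 lie between 0.38 and 0.67, and in SCC1 the single filled box, day 5, lies at −0.11.

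In SCC25, TRIM22, a ubiquitin ligase that restricts retroviral transcription (GRCh37 chromosome 11, 5710840 to 5758319), was the 1 member called without the block. It read 12.5, 11.6, 12.2, 18.5 and 29.0 CPM on PBS days 1 to 5 and 25.7, 21.2, 35.3, 45.4 and 57.1 CPM under cetuximab. The arms overlapped through PBS day 5 alone, and every cetuximab library exceeded PBS of its day (1.13 ± 0.30, n = 5 and 5 libraries, edgeR adjusted p = 0.023, and with the day block 1.14 ± 0.09, adjusted p = 0.00021). CXCL10 in SCC25 read 0.842, 1.93, 3.54, 7.60 and 11.8 CPM under PBS and 5.92, 8.37, 20.0, 31.0 and 31.9 CPM under cetuximab, higher on each day. Its change was 2.10 ± 0.17 with the day block (adjusted p = 0.00021) and 2.41 ± 0.27 with the flow cell added (adjusted p = 0.0011). RSAD2 in SCC25 read 1.70, 2.01, 3.99, 8.25 and 17.5 CPM against 3.26, 6.51, 16.4, 28.2 and 33.5 CPM under cetuximab. The blocked change of RSAD2 was 1.48 ± 0.17 (adjusted p = 0.00081).

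The groups of SCC25 moved broadly with the day block. The 3 of 3 sensors, 4 of 4 IFIT genes, 4 of 4 OAS genes, 2 of 2 chemokines, 4 of 5 IFI genes and 6 of 7 of the mixed group rose. Of the rest, 2 of 4 signalling factors, 3 of 5 in the group of ISG15 and its enzymes, 3 of 4 RNA or nucleotide effectors, 2 of 4 membrane genes and 0 of 2 MX genes rose. With the flow cell added the counts were 3 of 3 sensors, 3 of 4 IFIT, 2 of 4 OAS, 2 of 2 chemokines, 1 of 5 IFI, 6 of 7 mixed, 3 of 4 signalling, 1 of 5 ISG15, 2 of 4 RNA or nucleotide, 3 of 4 membrane and 0 of 2 MX genes. IFIT2 in SCC25 read 49.7, 69.1, 146, 224 and 258 CPM under cetuximab, against 31.1, 42.1, 69.4, 101 and 154 on the same PBS days. OASL read 31.3, 47.9, 73.1, 114 and 128 CPM, against 24.7, 35.9, 52.3, 89.6 and 121. Of the factors, STAT2 read 118, 122, 151, 182 and 214 CPM under cetuximab, above PBS of its day on each day (0.46 without the block, adjusted p = 0.11, and 0.46 ± 0.04 with the day block, adjusted p = 0.00032). IRF1, IRF7 and IRF9 did not pass without the block (0.14, adjusted p = 0.53, −0.08, adjusted p = 0.91, and 0.47, adjusted p = 0.52, edgeR). With the day block IRF9 was called (0.52 ± 0.08, adjusted p = 0.0022), and with the flow cell added both IRF9 (0.48 ± 0.12, adjusted p = 0.028) and IRF1 (0.32 ± 0.09, adjusted p = 0.041). IRF1 read 28.2, 31.0, 28.3, 36.6 and 35.9 CPM under cetuximab in SCC25, IRF7 8.95, 11, 6.16, 14.4 and 20.2, and IRF9 28.4, 28.5, 46.6, 77.6 and 104.

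In SCC6 the largest change was that of EPSTI1, a protein induced by stroma and interferon in epithelial cells (GRCh37 chromosome 13, 43460524 to 43566407). It read 4.61, 7.14, 7.47, 9.15 and 8.76 CPM on PBS days 1 to 5 and 34.4, 29.2, 41.4, 37.3 and 33.3 CPM in cetuximab libraries 2a, 2b, 3, 4 and 5. The arms did not overlap, and the change was 2.22 ± 0.18 (n = 5 and 5, edgeR adjusted p = 1.1e-05), or 2.27 ± 0.12 with day and flow cell (adjusted p = 2.3e-05). IFI6 in SCC6 read 0.498, 0.483, 1.04, 3.10 and 2.36 CPM under PBS and 3.87, 0.911, 5.62, 11.9 and 12.6 CPM under cetuximab (2.20 ± 0.67, adjusted p = 0.027). TRIM22 was low, at 0.231 to 0.758 CPM under PBS and 1.5, 0.785, 1.32, 1.96 and 2.70 CPM under cetuximab, without overlap (1.68 ± 0.35, adjusted p = 0.0044). With the flow cell added TRIM22 in SCC6 did not pass (1.23 ± 0.47, adjusted p = 0.074).

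Some members fell in SCC6. SAMD9, a cytoplasmic restriction factor of poxviruses and paralogue of SAMD9L (GRCh37 chromosome 7, 92728826 to 92747336), read 121, 224, 187, 162 and 172 CPM under PBS on days 1 to 5. Under cetuximab it read 69.3, 92.3, 61.1, 49.6 and 56.0 CPM, below every PBS library of those days, while PBS day 0 had 78.0 (−1.42 ± 0.19, edgeR adjusted p = 0.00028, and −1.56 ± 0.12 with day and flow cell, adjusted p = 7.4e-05). ISG20 (GRCh37 chromosome 15, 89178901 to 89199714) read 13.3, 7.20, 7.13, 4.51 and 3.13 CPM under PBS and 1.75, 1.92, 1.76, 2.33 and 1.74 CPM under cetuximab, again without overlap. Its change was −1.91 ± 0.33 (adjusted p = 0.0013), and −2.02 ± 0.15 with day and flow cell (adjusted p = 7.4e-05). HERC5 (−0.62), an ISG15 ligase, and HERC6 (−0.39) were also lower with the day block. Neither was called with the flow cell added (−0.20, adjusted p = 0.3, and −0.28, adjusted p = 0.073). SAMD9L, next to SAMD9 on chromosome 7, read 3.35, 3.08, 3.06, 3.70 and 4.15 CPM under cetuximab in SCC6, within 0.405 to 3.53 CPM of PBS for 3 of the 5 libraries.

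The other members called in SCC6 without the block were IFIT1 (0.84), IFIT2 (0.97), IFIT3 (0.78), OAS3 (0.39), RSAD2 (1.53), CMPK2 (1.48), IFI44 (0.56) and the factors STAT2, IRF1 and IRF9. RSAD2 and CMPK2 were near the floor, at 0.0623 to 0.769 and 0.0364 to 0.636 CPM on PBS days 1 to 5. Under cetuximab they lay at 0.566 to 1.43 and 0.283 to 0.905 CPM. With the flow cell added RSAD2 kept its call and CMPK2 did not (2.13 ± 0.81, edgeR adjusted p = 0.075). STAT2 in SCC6 read 55.1, 53.3, 58.3, 69.1 and 69.3 CPM under cetuximab, above all its PBS libraries (0.53 ± 0.11, edgeR adjusted p = 0.0041). IRF1 read 19.7, 16.3, 16.7, 23.8 and 18.7 CPM, likewise above its PBS libraries (0.61 ± 0.16, adjusted p = 0.014). IRF9 read 15.3, 9.08, 22.7, 39.4 and 42.0 CPM (1.27 ± 0.36, adjusted p = 0.02). Library 2b of IRF9 lay inside the PBS range and days 4 and 5, both on flow cell E, were highest. IRF7 read 0.222, 0.220, 0.363, 1.16 and 0.628 CPM and did not pass (0.62 ± 0.50, adjusted p = 0.38). IFIT2 under cetuximab was 41.0, 31.5, 39.6, 29.0 and 22.4 CPM, highest in the day 2 and 3 libraries. UBE2L6 read 3.55, 2.20, 4.22, 6.04 and 7.19 CPM and OAS1 1.87, 1.23, 2.31, 4.43 and 4.88 CPM. BST2, CXCL10 and CXCL11 were too low to test in SCC6, CXCL10 at 0 to 0.145 CPM under PBS.

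In SCC1, 5 members were higher and 1 lower without the block. TRIM22 read 11.6, 8.30, 9.59, 21.4 and 48.2 CPM on PBS days 1 to 5 and 28.5, 33.3, 61.5, 75.4 and 76.2 CPM under cetuximab (1.48 ± 0.46, edgeR adjusted p = 0.02). TRIM22 was the only member called higher in all 3 lines by that fit. STAT2 read 80.5, 106, 132, 140 and 149 CPM under cetuximab, and only PBS day 5, at 98, reached into that range (0.84 ± 0.19, adjusted p = 0.0026). IRF1 read 36.0, 36.5, 40.1, 41.8 and 39.8 CPM against at most 28.9 under PBS, without overlap (0.60 ± 0.08, adjusted p = 6.3e-05). With day and flow cell STAT2 (0.63 ± 0.18, adjusted p = 0.034) and IRF1 (0.49 ± 0.13, adjusted p = 0.026) were called in SCC1, as was IFITM2 (0.43 ± 0.13, adjusted p = 0.041). In SCC1 that fit takes the change from the day 5 pair alone, 1 library against 1. Its errors come from the scatter of the other days, so the p-values do not measure the spread between such pairs. STAT2 and IRF1 were also called higher in SCC6 and SCC25 in that fit, which rests on other days there. The share of all genes called higher in all 3 lines was not counted for either fit.

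ISG20 was lower in SCC1 as well, at 2.29, 2.27, 2.51, 2.45 and 3.14 CPM under cetuximab against 2.86, 3.24, 5.15, 6.89 and 6.23 CPM under PBS, where day 1 lay within the cetuximab range (−0.93 ± 0.23, edgeR adjusted p = 0.0051). EPSTI1 read 25.9, 19.2, 18.5, 38.4 and 55.9 CPM under PBS and 41.5, 45.2, 62.4, 64.9 and 72.1 CPM under cetuximab, with overlap at PBS day 5 (0.87 ± 0.28, adjusted p = 0.023). UBE2L6 went from 38.1, 35.8, 40.4, 55.8 and 77.6 CPM to 53.7, 75.6, 86.2, 93.5 and 99.5 CPM (0.74 ± 0.22, adjusted p = 0.014). IRF7 and IRF9 did not pass (−0.10 ± 0.33, adjusted p = 0.83, and 0.22 ± 0.28, adjusted p = 0.56). IRF7 read 12.1, 19.5, 30.6, 31.2 and 42.1 CPM under cetuximab in SCC1 and IRF9 26.2, 35.7, 53.1, 55.7 and 62.4 CPM, both inside or near the PBS range. IFI44L read 12.3, 34.2, 98.3, 124 and 150 CPM under cetuximab, with the step up by day 3 where PBS still had 9.22. CXCL10 read 5.99, 12.4, 22.7, 20.0 and 16.7 CPM, and on day 5 it was under the 18.4 of PBS. MX2 (7.52, 13.2, 29.4, 33.4 and 46.0 CPM) and CMPK2 (6.24, 9.59, 21.8, 26.6 and 32.0 CPM) were likewise above PBS on day 3 and under it on day 5.

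The response to cetuximab differed between lines at 3 members, by the line-by-treatment term over 30 libraries without the block, where 26.1% of all genes were called. They were ISG20 (edgeR adjusted p = 0.0041), EPSTI1 (adjusted p = 0.028) and SAMD9 (adjusted p = 0.0056). EPSTI1 responded more in SCC6 than in SCC1 by 1.38 ± 0.45 (adjusted p = 0.028), and the change in SCC25 was less than that in SCC6 (−1.38 ± 0.46, adjusted p = 0.035). SAMD9 fell in SCC6 relative to SCC1 (−1.71 ± 0.43, adjusted p = 0.0051), and SCC25 exceeded SCC6 by 1.54 ± 0.43 (adjusted p = 0.014). For ISG20 the gap between SCC25 and SCC6 was 1.80 ± 0.40 (adjusted p = 0.0021), and that between SCC6 and SCC1, −0.94 ± 0.41, did not pass (adjusted p = 0.11). With line and day as a block 14 members differed between lines (42.0% of all genes), and with the flow cell 1. Without SCC6 PBS day 5 the count was 5.

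Under cetuximab most members rose with the days in SCC1 and SCC25 and fewer in SCC6. In SCC1, 33 of 44 had a positive trend past the test (4.46% of all genes called, 3.09% upward), and in SCC25 32 of 44 (1.09%, 0.927% upward). In SCC6 10 of 41 rose (24.4%) and 1 fell (2.44%), where 20.1% of all genes were called, 10.6% upward and 9.52% downward. The steepest in SCC25 were RSAD2 (0.88 per day), IFI44L (0.84), IFIT1 (0.80) and CMPK2 (0.70), in SCC1 IFI44L (0.89) and IFI6 (0.76), and in SCC6 IFI6 (0.87) and IFI44L (0.73). IFI6 under cetuximab read 26.5, 33.4, 91.2, 124 and 193 CPM in SCC1 and 47.7, 29.9, 23, 60.9 and 97.8 CPM in SCC25. IFI27 read 92.5, 119, 236, 320 and 355 CPM in SCC1 and 153, 109, 148, 267 and 382 CPM in SCC25.

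The trends of both arms were then compared over days 1 to 5. In SCC1 no member differed by edgeR or DESeq2 (0.617% of all genes called, 3 members at an unadjusted p under 0.05), and none in SCC25 by either tool (0% of all genes, 8 members unadjusted). In SCC1 the count was 7 without PBS day 1. In SCC6 12 of 41 members differed, where 28.2% of all genes were called. By direction it was 7.32% of members upward and 22% downward, against 15.5 and 12.7% of all genes. STAT2 (0.23 per day), IRF9 (0.59) and ISG20 (0.52) had the higher trend under cetuximab. DDX58, DDX60, HERC5, IFIT2, IFIT3, IFIT5, IFITM2, SAMD9L and PARP14 had the lower, of which IFIT2 differed by −0.60 ± 0.11 (edgeR adjusted p = 0.0064) and IFITM2 by −0.51 ± 0.09 (adjusted p = 0.0061). The SCC6 count was 3 without PBS day 1 and 19 without PBS day 2, and its cetuximab days 4 and 5 stood alone on flow cell E.

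Of the 50 other genes of the pathway that were listed, the interferons themselves were almost undetected. Only IFNE of 8 interferon genes was abundant enough to test, in each line. IFNB1 reached at most 13 counts in a library (0.327 CPM), IFNL1 13, IFNL2 16, IFNL3 8, IFNA1 9, IFNK 5 and IFNG 2. IFNE, an epithelial type I interferon, read 2.94, 3.24, 2.85, 2.85 and 4.31 CPM on PBS days 1 to 5 in SCC1 and 0.908, 0.945, 0.679, 0.368 and 0.675 CPM under cetuximab. It fell by 2.16 ± 0.22 on the log2 scale there (edgeR adjusted p = 1.1e-05) and changed by −1.01 ± 0.26 in SCC6 (adjusted p = 0.013). In SCC25 it moved by −0.35 (adjusted p = 0.14, and 0.038 with the day block).

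Without the block 16 of 43 tested pathway genes were higher and 8 lower in SCC1, where 44.8% of all genes were called, 9 and 6 of 42 in SCC6 (30.1%), and 5 and 2 of 42 in SCC25 (18.3%). GBP1 and GBP2, GTPases that attack vacuoles of pathogens and are classical targets of interferon gamma, were among those higher in all lines. GBP1 rose by 1.06 in SCC1 (adjusted p = 0.019), 3.20 ± 0.39 in SCC6 (adjusted p = 0.00015) and 0.95 in SCC25 (adjusted p = 0.0045), and GBP2 by 2.01, 1.52 and 1.46. The third guanylate binding protein of the list, GBP3, was not called without the block and was lower in SCC6 with the day block (−0.39, adjusted p = 0.0072). GBP1 in SCC6 read 1.18, 2.79, 2.54, 4.27 and 7.16 CPM under PBS and 27.8, 22.5, 40.6, 31.0 and 44.8 CPM under cetuximab. JAK1 was higher in SCC1 (0.17, adjusted p = 0.012) and SCC6 (0.44, adjusted p = 0.011).

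Other cell markers moved with the arms in places. In SCC1 the epithelial markers summed to 1317 to 2515 CPM under PBS and 6009 to 9537 under cetuximab, where KRT5 (2.58), KRT17 (2.47) and KRT14 (1.84) rose most and EPCAM fell (−0.73, edgeR adjusted p = 0.00014), while blood cell markers, nearly all from CD68, summed to 17.5 to 48.09 and 6.36 to 9.72 CPM. In SCC6 the blood cell sum was 16.64 to 32.37 CPM under PBS and 4.12 to 7.19 under cetuximab, and in SCC25, 165.27 to 232.32 and 145.31 to 174.34. The fibroblast and endothelial markers DCN, PDGFRB, PECAM1 and VWF summed to more under cetuximab in each line, with PDGFRB called higher in SCC6 (up to 8.33 CPM) and DCN in SCC1 and SCC25 and neither PECAM1 nor VWF called in any line. The sums went from 0.74 to 1.57 CPM under PBS to 1.99 to 2.66 in SCC1, from 0.23 to 0.81 to 1.32 to 9.31 in SCC6, and from 6.08 to 11.34 to 13.45 to 14.21 in SCC25. Their part in the members' values was not tested. In bulk samples a smaller share of cells that express a gene and less RNA of it per cell cannot be told apart. Counts of the near-identical IFITM genes, and of CMPK2 and RSAD2, whose spans overlap on opposite strands, depend on how reads were assigned between copies and strands.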

How the data were processed

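Poly(A) RNA of 33 samples of SCC1, SCC6 and SCC25 was sequenced by the study with a stranded kit. The deposited values are estimated counts per gene, which the authors made with Salmon (version 0.8.2 in the submitters' processing notes, which also name GRCh37) and summed to genes with tximport. The annotation is not given in the sources used here, and 63.2% of the values were whole numbers. Columns were matched to libraries by their labels.

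Estimated counts were rounded and tested with edgeR 4.0.16 in R 4.3.3 (quasi-likelihood test, filter on low counts by filterByExpr, TMM scaling, Benjamini-Hochberg adjustment over all genes tested, threshold 0.05). Fits covered, in each line, cetuximab against PBS on days 1 to 5, the linear day trend under PBS on days 0 to 5 and the difference of the trends, and across lines the line-by-treatment term and the PBS levels. Errors after ± are SE. The tests were checked on simulated counts. CPM were computed from the totals adjusted by TMM factors, and ratios of single libraries used CPM + 0.1. Library totals ran from 28508758 to 80727478.

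The members and lists were chosen with earlier results of these data known. Values in every library are given for up to 6 called members of largest change and 4 of largest PBS trend per line, with a mean of at least 1 CPM, and for IRF1, IRF7, IRF9 and STAT2. The labelled day pairs the arms, and the day block rests on it. Deviations of same-day libraries from their group means correlated at 0.06 to 0.21 in SCC1, −0.07 to 0.31 in SCC6 and 0.12 to 0.26 in SCC25. Alternatives were DESeq2 1.42.0, other scaling, no filter, a day block, flow cell, GC trend and leaving out each library. Nothing says that days came from separate cultures. Protein sequences of the IFITM genes were not used here, and values of 1 other pathway gene are not reported here.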

Additional observations from a re-analysis of the deposited data

Results flagged for a closer look

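ISG20 in SCC1 under cetuximab stood out on day 5, at 3.14 CPM against 2.27 to 2.51 CPM on the other 4 days, a gap of 0.72 of the range where 0.71 is the limit for 5 libraries. It was 1 of 68 groups of named genes examined, and chance alone passes about 1 in 20.

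The cetuximab change differed between the lines by the interaction term (edgeR) at ISG20 (adjusted p = 0.0041), EPSTI1 (adjusted p = 0.028) and SAMD9 (adjusted p = 0.0056). That test called 26.1% of all genes. ISG20 was lower under cetuximab in SCC6 and SCC1, SAMD9 was lower in SCC6, and EPSTI1 rose most in SCC6.

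In SCC6 the day trend of 12 of 41 members differed between cetuximab and PBS, 3 upward (STAT2, IRF9, ISG20) and 9 downward. In the same test 28.2% of all genes were called, 15.5% upward and 12.7% downward. The cetuximab libraries of days 4 and 5 were the only ones on flow cell E, and day and flow cell cannot be told apart there.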

How the results depend on the processing

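Most members called for the PBS trend rose in all 3 lines under each alternative run, and without SCC25 PBS day 5, 28 rose and 2 fell. With the labelled day as a replicate block the members called under cetuximab numbered 28 in SCC1, 24 in SCC6 and 33 in SCC25, against 6, 15 and 1. The shares of all genes called were 47.1, 45.8 and 26.8%, against 44.8, 30.1 and 18.3%. With a GC trend removed as well the members numbered 28, 28 and 36 (chosen after the data were seen). With line and day as a replicate block 14 members differed between lines (42.0% of all genes), against 3 (26.1%). With the flow cell as a covariate 3 were called in SCC1, 0 in SCC25 and 1 between lines. With the day block added it was 3 in SCC1 and 26 in SCC25 (28.7 and 13.6% of all genes). Within flow cell C, where SCC1 has 1 PBS library, 3 were called, and within flow cell A, with SCC25 cetuximab days 1 and 2 only, 0. In SCC25 DESeq2 called 2, upper quartile scaling 3, no filter 3, day 0 added to PBS 4 and a GC trend removed 4. A change of at least 1 (log2) left 1 member in SCC1 and 8 in SCC6. The SCC6 PBS trend was called for 12 members on days 1 to 5 and 10 on flow cell D. Counts without a share of all genes beside them show only how the number moved. They are not read as results about the members.

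Leaving out each library in turn gave 4 to 15 under cetuximab in SCC1, 8 to 21 in SCC6 and 0 to 13 in SCC25, 1 to 30, 12 to 24 and 30 to 39 for the PBS trend, 0 to 7 in SCC1 and 3 to 19 in SCC6 for the difference of trends, and 2 to 5 between lines. Shares of all genes called are not given for these runs, so the counts show only their dependence on single libraries.

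Small changes turned sign. IRF7 under cetuximab in SCC1 ran from −0.33 to 0.11 with libraries left out (0.11 without PBS day 4, 0.09 without cetuximab day 1), 0.22 with day block and flow cell and 0.03 with day 0. In SCC25 it ran from −0.33 to 0.33 (0.33 without PBS day 5, 0.02 without cetuximab day 1, 0.09 without day 3), with 0.35 with day block and flow cell, 0.08 with day 0, 0.14 with a GC trend removed and 0.13 with the day block too. In SCC6 it was −0.16 with the flow cell and −0.14 on flow cell D. IRF9 was −0.44 with the flow cell, −0.02 with the day block too and −0.46 on flow cell C in SCC1, and −0.53 with the flow cell and −0.53 on flow cell A in SCC25. Its PBS trend in SCC6 ran from −0.10 to 0.04 (0.04 without day 0), with 0.04 on days 1 to 5, 0.15 on flow cell D and 0.02 with a GC trend removed. The cause was not tested. Of the other values of single genes 644 kept direction and side of the threshold, 78 lost and 9 gained it.

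Below about 1 CPM, as for IRF7, TRIM22, RSAD2 and CMPK2 in SCC6, values rest on few counts.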
